A study of Mus musculus with 2 samples.

Results

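The miR-15/16 family is a group of miRNAs that share the same seed, represented here by members from 4 loci in the mouse genome. It was followed in 2 small RNA libraries of mouse helper T cells, 1 from cells cultured toward the Th17 state and 1 from Th0 control cells. The members were fixed by name: 6 guide arms (miR-15a-5p, miR-15b-5p, miR-16-5p, miR-195a-5p, miR-497a-5p and miR-322-5p) and 2 passenger arms (miR-15a-3p and miR-322-3p). They are 8 of the 1125 mature miRNAs listed in at least 1 library, and all 8 were listed in both. Summed, the 6 guide arms held 4.25% of the listed reads in Th17 cells and 6.02% in Th0 cells. The members differed in direction: products of the Mir15a/Mir16-1 and Mir15b/Mir16-2 loci were moderately lower in Th17 cells, the pair miR-195a-5p and miR-497a-5p was much lower, and both miR-322 arms were higher.

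Both cultures started from naive CD4+CD62L+ cells isolated from spleens of female C57BL/6 mice, kept in medium with 10% serum. The Th17 culture ran 6 to 7 days with anti-CD28 (1 µg/ml) and 4 antibodies at 5 µg/ml, against IL-4, IFN-γ, IL-2 and IL-12. To these were added the cytokines IL-6 and IL-23 (40 ng/ml of each), IL-1β (10 ng/ml) and TGF-β (2 ng/ml). Th0 cells received only anti-CD28 at 1 µg/ml and the IL-4 and IFN-γ antibodies at 5 µg/ml, for a time the labels do not tie to them, so culture time and Th17 medium cannot be told apart. The listed reads summed to 11975371 in Th17 and 8358010 in Th0. The labels speak of triplicates, but each group has 1 column of reads, so there is no replicate check and no p-value. Every interval is a 95% interval of counting error, and the spread between cultures, against which a difference would have to be judged, was not tested. In libraries from a whole culture, fewer cells that make a miRNA and less of it per cell cannot be told apart. The 6 miRNAs listed as marking T cells were all present, 4 of them higher and 2 lower in Th17, and summed to 283585 CPM (counts scaled to the sum of listed reads) in Th17 and 249102 CPM in Th0.

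A miRNA guides an Argonaute protein to messenger RNAs mainly through its seed, bases 2 to 8, and represses those that carry the complementary site. Members with the same seed are therefore expected to share many targets. The miR-15/16 seed is known for restraining the cell cycle, through cyclin and cyclin-dependent kinase messages, and survival, through Bcl2. The Mir15a/Mir16-1 locus is lost in many human chronic lymphocytic leukaemias, and in mouse T cells the family limits proliferation and memory formation. miR-195 and miR-497 are known from muscle and stromal tissues, and miR-322, the rodent counterpart of human miR-424, from muscle differentiation and hypoxia.

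The mature sequences show what the 6 guide arms share and where they part, with the seed in capitals (RefSeq, GRCm38.p6, each 5′ to 3′).
miR-16-5p: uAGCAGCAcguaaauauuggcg
miR-195a-5p: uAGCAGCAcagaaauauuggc
miR-15a-5p: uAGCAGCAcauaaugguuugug
miR-15b-5p: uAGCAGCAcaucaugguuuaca
miR-497a-5p: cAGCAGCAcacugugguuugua
miR-322-5p: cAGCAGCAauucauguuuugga
All 6 carry the seed AGCAGCA, whose reverse complement, UGCUGCU, is the site read on a target. Of the 6, 4 begin with U and 2, miR-497a-5p and miR-322-5p, begin with C. Over the whole compared length, seed included, the closest pair is miR-16-5p and miR-195a-5p, which differ at 2 of 21 positions, followed by miR-15a-5p and miR-15b-5p, which differ at 4 of 22. The sources used here do not say how the authors' counting divided reads among such near copies. The reference holds 10 mature miRNAs with this seed, and the 6 guide arms are those listed in either library.

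The passenger arms have other seeds. Those set beside guide arms in the results are shown with bases 2 to 8 in capitals, and among them miR-16-1-3p and miR-16-2-3p tell apart hairpins that share a guide arm.
miR-15a-3p: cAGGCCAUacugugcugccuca
miR-15b-3p: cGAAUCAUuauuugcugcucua
miR-16-1-3p: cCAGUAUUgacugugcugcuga
miR-16-2-3p: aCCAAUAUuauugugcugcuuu
miR-322-3p: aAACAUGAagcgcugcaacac
miR-16-5p comes from 2 hairpins with the same 5p arm and different 3p arms, which is visible when both hairpins are written out with the mature arms in capitals.
Mir16-1: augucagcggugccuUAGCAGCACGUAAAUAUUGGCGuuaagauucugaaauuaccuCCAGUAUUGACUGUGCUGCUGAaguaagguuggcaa
Mir16-2: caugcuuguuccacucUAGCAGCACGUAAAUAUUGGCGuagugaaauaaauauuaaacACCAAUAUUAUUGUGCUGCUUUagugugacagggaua
The 3p arms miR-16-1-3p and miR-16-2-3p match at 12 of 22 positions when compared without gaps. Their sequences can thus place a read on 1 hairpin, whereas that of miR-16-5p cannot. How the counting divided reads among similar 3p arms is not known.

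In mm10, whose assembly is that of GENCODE M21, Mir15a (chr14:61632027-61632110) and Mir16-1 (chr14:61631880-61631972) lie 54 bases apart on the minus strand within Dleu2, a long noncoding RNA. Mir15a falls in an intron of Dleu2 and Mir16-1 overlaps an annotated exon. Mir15b (chr3:69009772-69009835) and Mir16-2 (chr3:69009902-69009996) lie 66 bases apart on the plus strand in an intron of Smc4, which encodes a condensin subunit. Mir497 (chr11:70234717-70234800), the source of miR-497a-5p, and Mir195a (chr11:70235042-70235135) lie 241 bases apart on the plus strand with no annotated host on that strand. Mir322 (chrX:53054255-53054349) heads a minus-strand cluster in the order Mir322, Mir503, Mir351, Mir542, Mir450-2, Mir450-1 and Mir450b, again with no annotated host. Between Mir322 and Mir503 lie 200 bases.

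miR-16-5p dominated the family in both libraries. It had 473022 reads in Th17 and 462642 in Th0, or 39499.6 CPM (interval 39387 to 39612) and 55353 CPM (55194 to 55513), and was the 8th most abundant miRNA in Th17 and the 7th in Th0. miR-15b-5p followed with 1536 CPM in Th17 and 2745 CPM in Th0, and miR-15a-5p with 1217.5 and 1897 CPM. These 3 stood in the same order in both libraries and their intervals did not overlap within a library.

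The order of the rarer members differed between the libraries. miR-322-5p was next in both libraries, at 227 CPM in Th17 and 190.4 CPM in Th0. Below it, Th17 cells had miR-322-3p at 47.3 CPM (43.4 to 51.3) and miR-15a-3p at 10.4 CPM (8.69 to 12.4). miR-497a-5p at 3.67 CPM (2.67 to 4.93) and miR-195a-5p at 3.01 CPM (2.11 to 4.16) came last, with overlapping intervals. In Th0 cells the order was another: miR-195a-5p was at 27.2 CPM (23.7 to 30.9), miR-497a-5p at 25.1 CPM (21.8 to 28.8), miR-322-3p at 22.3 CPM (19.2 to 25.7) and miR-15a-3p at 21.8 CPM (18.7 to 25.2). Neighbours in that order did not differ beyond counting error, whereas miR-195a-5p held 55.5% of the reads of miR-195a-5p and miR-15a-3p (50.5 to 60.4%). Each read is 1 small RNA of nearly the same length, so no length scaling enters, but differences in adapter ligation between sequences are not corrected.

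**Figure D1:**
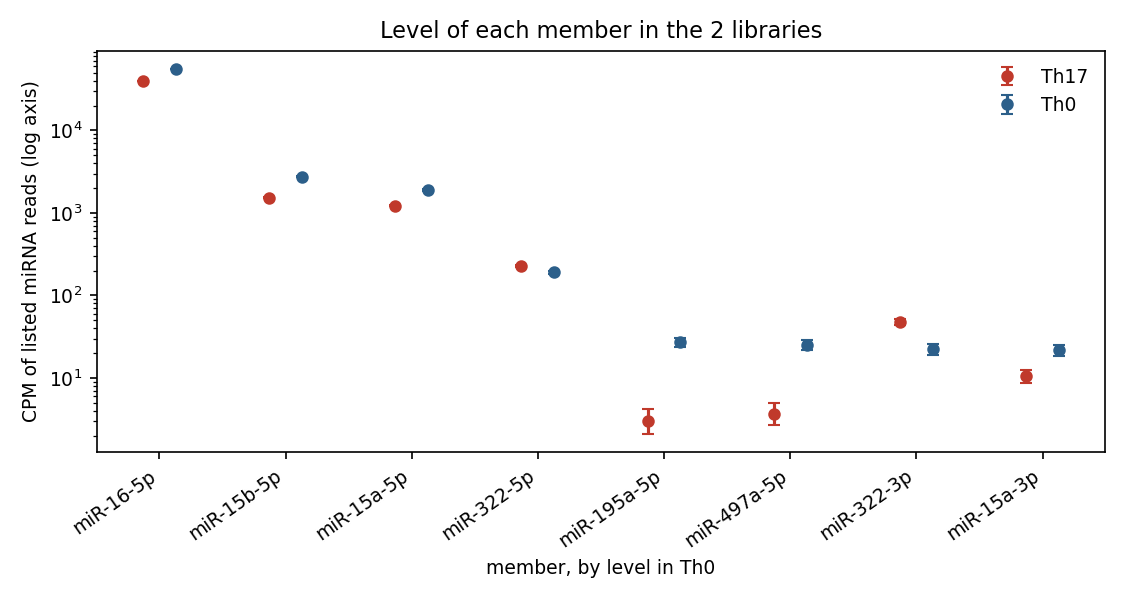
Level of each member in CPM on a log axis, Th17 (red) left of Th0 (blue), with exact Poisson 95% intervals of counting error, 1 library per group. miR-16-5p stands 25.7 times above miR-15b-5p in Th17 and 20.2 times in Th0, and only the 2 miR-322 arms are higher in Th17.

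Summed over the 6 guide arms, the seed family had 508795 reads in Th17 and 503464 in Th0, or 42487 CPM (42370 to 42604) and 60237 CPM (60071 to 60404). The sum was 1.42-fold lower in Th17 (1.41 to 1.42), a log2 ratio of -0.50, against a median of -0.08 over the 298 miRNAs that averaged 10 CPM or more across both libraries. miR-16-5p supplied 93.0% of the sum in Th17 and 91.9% in Th0, so the sum mostly restates miR-16-5p, which was 1.40-fold lower (1.40 to 1.41). The other 5 guide arms together were 1.64-fold lower (1.61 to 1.66), at 2987 CPM in Th17 and 4884 CPM in Th0.

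The products of the Mir15a/Mir16-1 and Mir15b/Mir16-2 loci were all lower in Th17 cells. miR-15b-5p had 18393 reads in Th17 and 22942 in Th0 and was 1.79-fold lower (1.75 to 1.82). miR-15a-5p had 14580 and 15852 reads and was 1.56-fold lower (1.52 to 1.59). Counting intervals of these 2 ratios did not overlap with each other or with that of miR-16-5p, which had the ratio nearest to 1 of the 3. The passenger arm miR-15a-3p, at 125 reads in Th17 and 182 in Th0, was 2.09-fold lower (1.65 to 2.64), an interval that crosses 2. miR-15b-3p, the abundant passenger arm of Mir15b and not itself a member, was at 210.5 CPM in Th17 and 405 CPM in Th0, 1.92-fold lower (1.83 to 2.03).

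The 3p arms of the Mir16 hairpins were lower as well. miR-16-1-3p had 238 reads in Th17 and 242 in Th0 and was 1.46-fold lower (1.21 to 1.75), while miR-16-2-3p had 759 and 823 reads and was 1.55-fold lower (1.41 to 1.72). Both intervals overlap each other and that of miR-16-5p. Of the 3p reads of both hairpins, miR-16-1-3p made up 23.9% in Th17 (21.3 to 26.6%) and 22.7% in Th0 (20.2 to 25.4%). The ratio of miR-16-1-3p to miR-16-2-3p was 1.07 times as high in Th17 as in Th0 (0.865 to 1.32), so no shift between the 2 Mir16 hairpins was detectable at this depth. The neighbouring hairpins gave a small shift in their guide arms. miR-15a-5p made up 44.2% of miR-15a-5p and miR-15b-5p reads in Th17 (43.7 to 44.8%) and 40.9% in Th0 (40.4 to 41.4%), a ratio to miR-15b-5p that was 1.15 times as high in Th17 (1.11 to 1.18). Among their passenger arms, reads of miR-15a-3p were too few to show such a shift or its absence. miR-15a-3p was 4.72% of both 3p arms in Th17 (3.95 to 5.60%) and 5.10% in Th0 (4.40 to 5.87%), a ratio to miR-15b-3p that was 0.922 times as high in Th17 (0.724 to 1.17). Leaving out miR-16-5p, the 3 products of the chromosome 14 locus summed to a 1.56-fold lower level (1.53 to 1.60) and those of the chromosome 3 locus to a 1.79-fold lower level (1.76 to 1.83). The within-library shares and the ratios of 2 products do not depend on the scaling, whereas the fold changes of products and loci do.

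miR-195a-5p and miR-497a-5p had by far the lowest ratios of the family. miR-195a-5p had 36 reads in Th17 and 227 in Th0 and was 9.03-fold lower (6.34 to 13.2). miR-497a-5p had 44 and 210 reads and was 6.84-fold lower (4.92 to 9.69). Among those 298 miRNAs, miR-195a-5p had the lowest log2 ratio of all, -3.18 (-3.73 to -2.66). miR-497a-5p had the third lowest, -2.77 (-3.28 to -2.30). These intervals overlap, so counting error does not settle the places. Both members averaged 10 CPM only through Th0, as they were at 3.01 and 3.67 CPM in Th17. No shift within the pair was detectable at this depth: miR-195a-5p made up 45.0% of the pair in Th17 (33.8 to 56.5%) and 51.9% in Th0 (47.1 to 56.7%).

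The other products of this locus were rare. miR-195a-3p had 1 read in Th17 and 13 in Th0, a ratio of Th17 over Th0 of 0.054 with an interval of 0.0013 to 0.36. Its sequence is not shared with miR-16-5p but is close to that of miR-16-1-3p. How the counting divided reads between these 3p arms is not known. miR-497b, read from the opposite strand of Mir497, had 2 reads in Th17 and was not listed in Th0. miR-497a-3p was listed in neither library, which allows up to 0.251 CPM in Th17 and 0.359 CPM in Th0. Set against the reads of its near copy, miR-195a-5p had 0.761 reads per 10000 miR-16-5p reads in Th17 and 4.91 in Th0. Markers of other cell types also differed between the cultures, and their part in the miR-195a and miR-497a ratios was not tested. The 2 endothelial miRNAs, both listed in each library and lower in Th17, summed to 85.9 CPM in Th17 and 191 CPM in Th0. The 6 epithelial ones, of which 6 and 5 were listed, summed to 208 and 387 CPM. Of these, 4 were lower and 2 higher in Th17. The 7 stromal and smooth muscle miRNAs went the other way in sum, at 27.4 CPM in Th17 and 2.63 CPM in Th0. Among them 4 were higher and 1 lower in Th17, with miR-145a-3p and miR-199b-5p at 0 in both. The myeloid, erythroid, striated muscle and liver lists summed to 6.93, 3.51, 1.00 and 0.0835 CPM in Th17. In Th0 they summed to 3.35, 0.838, 0.239 and 0 CPM, with miR-1a-3p at 0 in both libraries. The 2 neural miRNAs, 1 higher and 1 lower, summed to 4.93 CPM in Th17 and 13.9 CPM in Th0.

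The X-linked miR-322 was the member higher in Th17 cells, with its 2 arms differing in size. The guide miR-322-5p had 2720 reads in Th17 and 1591 in Th0 and was 1.19-fold higher (1.12 to 1.27). The passenger miR-322-3p had 566 and 186 reads and was 2.12-fold higher (1.80 to 2.52), an interval that crosses 2. The intervals of the 2 arms do not overlap.

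Those of its neighbours in the cluster whose intervals excluded 1 were all higher as well. miR-351-5p, whose seed is that of the miR-125 family, was the most abundant product of the cluster, with 676 CPM in Th17 and 414 CPM in Th0, 1.63-fold higher (1.57 to 1.70). miR-450b-5p had 589 reads in Th17 and 268 in Th0 and was 1.53-fold higher (1.33 to 1.78), and miR-450a-5p had 313 and 162 reads and was 1.35-fold higher (1.11 to 1.64). Among rarer products, miR-542-3p had 80 reads in Th17 and 16 in Th0 (3.49-fold higher, 2.02 to 6.40) and miR-542-5p had 36 and 11 (2.28-fold higher, 1.14 to 4.97). All 5 products of the cluster that averaged 10 CPM or more, the 2 miR-322 arms included, had intervals above 1, as did 40.6% of all 298 miRNAs at that level.

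Other cluster products had too few reads for a direction. miR-503-5p, with the related sequence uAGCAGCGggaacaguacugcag (bases 2 to 8 in capitals) but not the family seed, had 14 reads in Th17 and 6 in Th0 (ratio 1.63, 0.588 to 5.17). miR-503-3p had 36 and 15 reads (1.68, 0.894 to 3.29), miR-351-3p 10 and 6 reads (1.16, 0.383 to 3.89) and miR-450b-3p 11 and 2 reads (3.84, 0.838 to 35.6). miR-450a-1-3p had 2 reads in Th17 and was not listed in Th0, and miR-450a-2-3p was listed in neither. The 10 listed neighbours of miR-322 summed to 768 CPM in Th17 and 472 CPM in Th0, 1.63-fold higher (1.57 to 1.69). miR-351-5p supplied 8101 of their 9192 reads in Th17 and 3461 of 3947 in Th0, so the sum mostly restates miR-351-5p.

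**Figure D2:**
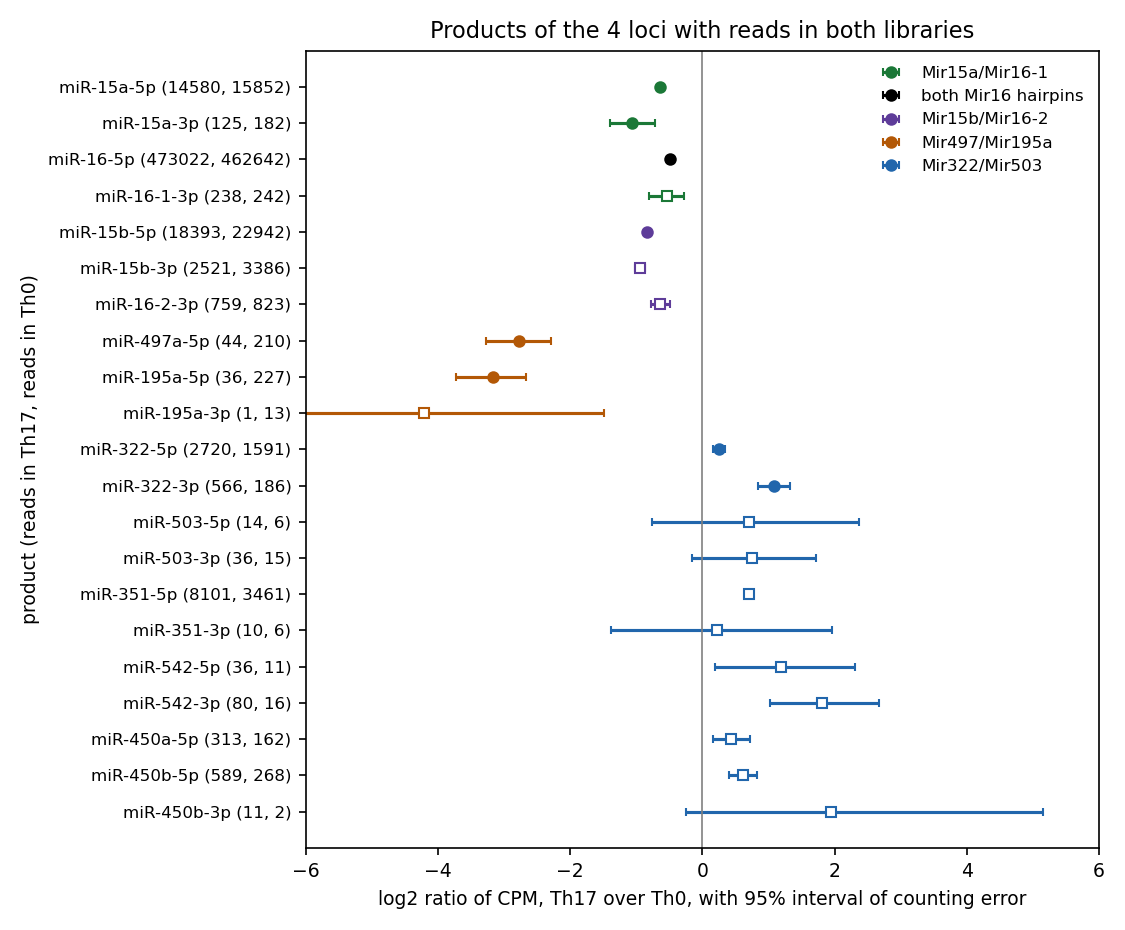
Log2 ratio of CPM, Th17 over Th0, for each product of the 4 loci with reads in both libraries, with its 95% counting interval and its reads in Th17 and then Th0. Filled circles are members, open squares are other products, and the left end of the miR-195a-3p interval runs off the axis. Both Mir16 loci lie left of 0, the Mir497/Mir195a products lie furthest left, and the Mir322 cluster lies right of 0, with 4 of its intervals crossing it.

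Arm use was compared in 5 hairpins or hairpin pairs of the family with both arms listed, by the 5p share in each library and by the ratio of 5p to 3p reads in Th17 over that in Th0. The 5p arm made up 99.1% of Mir15a reads in Th17 (98.99 to 99.29%) and 98.9% in Th0 (98.69 to 99.02%), and the 5p to 3p ratio was 1.34 times as high in Th17 (1.06 to 1.70). It made up 87.9% of Mir15b reads in Th17 (87.5 to 88.4%) and 87.1% in Th0 (86.7 to 87.5%), with a 5p to 3p ratio 1.08 times as high in Th17 (1.02 to 1.14). Of the joined Mir16 reads it made up 99.8% in both libraries, with a ratio 1.09 times as high in Th17 (1.001 to 1.19). For Mir195a the share was 97.3% in Th17 (85.8 to 99.9%) and 94.6% in Th0 (90.9 to 97.1%), on 37 and 240 reads, too few for a direction (2.06 times, 0.292 to 90.0). Mir322 went the other way. Its 5p share was 82.8% in Th17 (81.4 to 84.1%) and 89.5% in Th0 (88.0 to 90.9%), 6.76 percentage points lower in Th17. In reads, 1 passenger arm stood beside 4.81 guide arms in Th17 and beside 8.55 in Th0, so that the ratio was 0.562 times as high in Th17 (0.468 to 0.672).

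Among guide arms other than miR-16-5p, miR-322-5p took 7.60% of reads in Th17 (7.33 to 7.88%) and 3.90% in Th0 (3.71 to 4.09%). miR-15b-5p took 51.4% in Th17 and 56.2% in Th0, and miR-15a-5p 40.8% and 38.8%. miR-195a-5p and miR-497a-5p took 0.101% and 0.123% in Th17, and 0.556% and 0.514% in Th0.

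**Figure D3:**
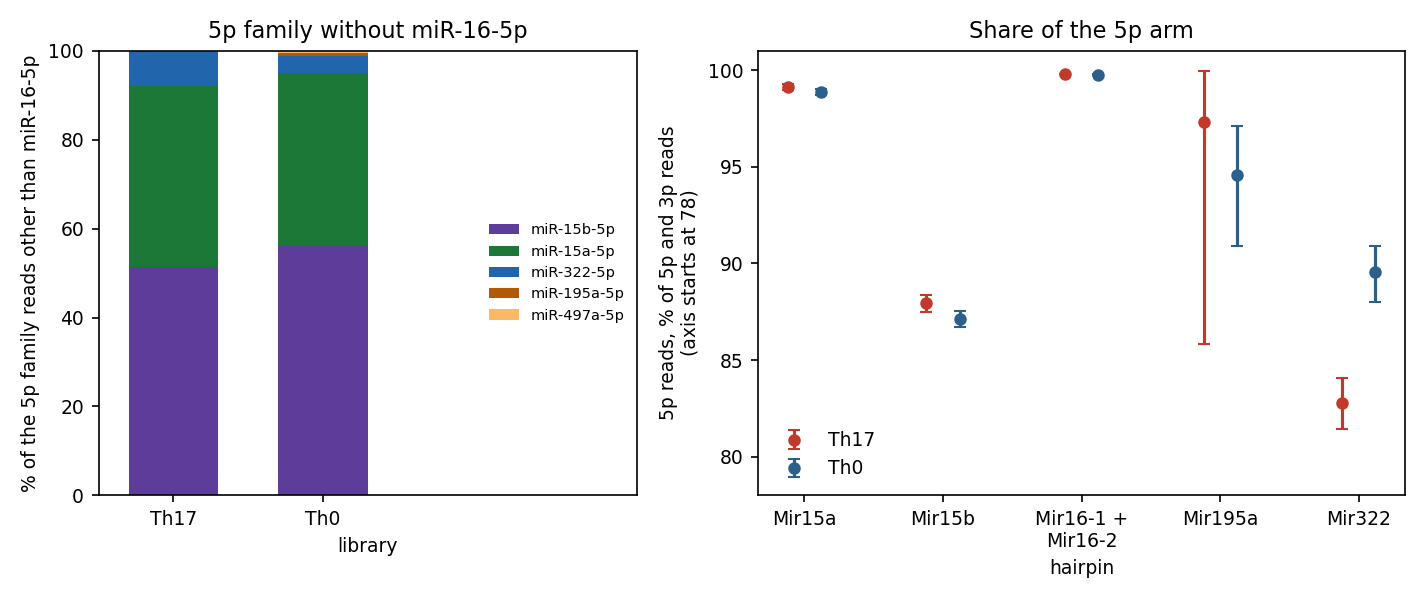
Left, percent of 5p family reads other than miR-16-5p taken by each guide arm in Th17 and Th0. Right, 5p reads as percent of 5p and 3p reads per hairpin, Th17 (red) left of Th0 (blue), with exact binomial 95% intervals on an axis that starts at 78. Mir322 is lower in Th17, at 82.8% in Th17 and 89.5% in Th0, while Mir15a and Mir15b are slightly higher in Th17.

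All 8 members averaged 10 CPM or more, miR-195a-5p and miR-497a-5p only through Th0. Of the 8, 6 had an interval below 1, against 47.7% of the 298 miRNAs at that level, and 2 had one above 1, against 40.6%. A ratio at least 2-fold lower with an interval below 1 was reached by 3 members (miR-195a-5p, miR-497a-5p and miR-15a-3p), and 13.1% of the 298 did so. A ratio at least 2-fold higher was reached by 1 member, miR-322-3p, and by 6.71% of the 298. At 1.5-fold the members numbered 5 lower, with miR-15a-5p and miR-15b-5p added, and 1 higher, against 25.5% and 16.8% of the 298. miR-15a-3p stood just past the 2-fold line and miR-15b-5p, at 1.79-fold lower, was the nearest short of it. With DESeq2 size factors miR-15a-3p no longer reached 2-fold, at a log2 ratio of -0.98, and with the 10 most abundant miRNAs left out of the total miR-322-3p did not, at 0.96. The median log2 ratio of the 8 members was -0.74, within a span of -3.18 to 1.09.

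Grouping all miRNAs by seed placed the family among the abundant ones, moderately lower in Th17. Sequences were found for 935 of the 1125 listed miRNAs, which held 95.1% of Th17 reads and 95.7% of Th0 reads. The other 190, among them 23 with a mean of at least 100 CPM such as miR-23b-3p and miR-147-3p, were left out, so families can lack members and ranks hold only among those formed. These were 98 seed families with a summed mean of at least 100 CPM. The miR-15/16 family was the 9th most abundant of them in Th17 and the 7th in Th0. By summed ratio it was the 25th from the lowest. The lowest of the 98 was that of miR-19b-3p, 5.94-fold lower (5.77 to 6.11), and the highest was miR-155-3p, 4.51-fold higher (4.09 to 4.98). Among the miRNAs left out, miR-147-3p was 10.4-fold higher in Th17 (9.94 to 10.8). The median log2 ratio of the 98 families was -0.07.

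Over these 2 libraries, the 5 miRNAs at an average of 100 CPM or more whose log2 ratio came nearest to that of the family sum were miR-23a-3p at -0.48, miR-423-5p at -0.46, miR-3968 at -0.55, miR-467a-5p at -0.45 and miR-532-5p at -0.56. With 2 libraries this likeness is a single ratio for each miRNA.

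**Figure D4:**
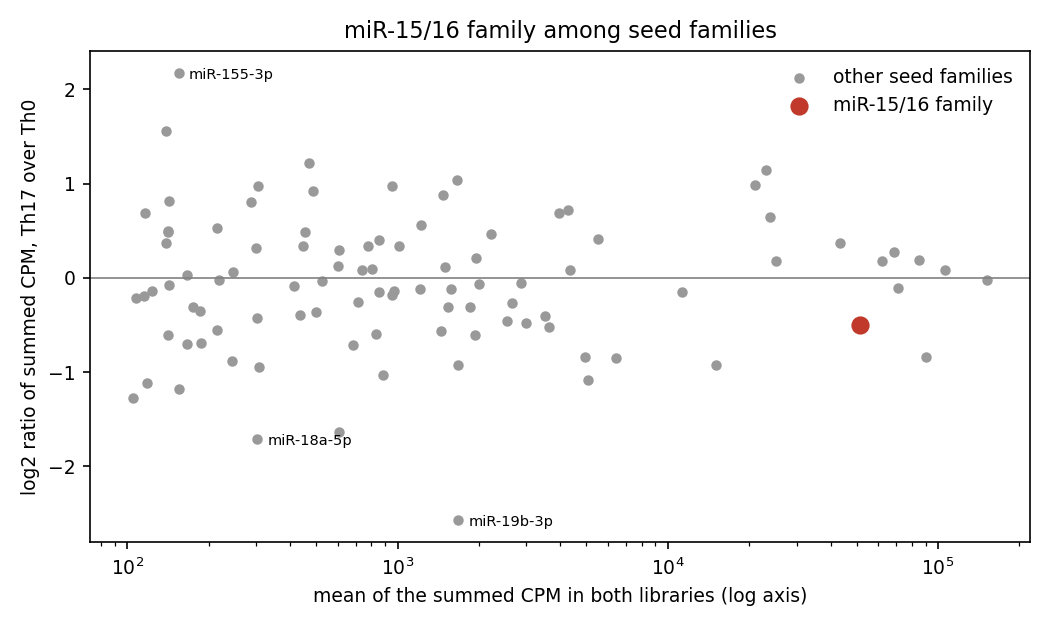
Log2 ratio of summed CPM, Th17 over Th0, against the mean summed CPM (log axis) for 98 seed families, 1 point per family. The miR-15/16 family (red) lies at -0.50, the 25th lowest of the 98, and the lowest and highest of those drawn are miR-19b-3p and miR-155-3p.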

How the data were processed

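Each library came as a deposited table of mature miRNAs with whole-number read counts and a TPM value. The deposited TPM values are the counts over 1 total per library (13070648 in Th17 and 9072995 in Th0), which exceeds the listed reads by 8.38% and 7.88% of it. Per the submitters' processing notes the genome was mm10. The sources used here do not say how reads were trimmed and aligned, how reads matching several miRNAs were treated or how any triplicates were joined.

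Counts were scaled by the sum of listed reads (CPM), with a missing row taken as 0 reads. Ratios are Th17 over Th0 with exact conditional (Clopper-Pearson) 95% intervals, ratios of 2 products compared between libraries have exact conditional intervals (for miR-16-5p, conditional on its reads), shares have exact binomial intervals, and levels exact Poisson intervals. Without molecular identifiers, PCR reads cannot be taken as independent molecules, so all intervals cover counting error only, as do limits for a count of 0 (3 reads per library). 1 read equals 0.0835 CPM in Th17 and 0.120 CPM in Th0. Alternatives used TMM factors from edgeR 4.0.16, size factors from DESeq2 1.42.0, the TPM values, a total without the 10 most abundant miRNAs, added CPM and other minimum levels. Neither tool was used for a test, since there is 1 library per group.

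The text names the 8 members, the other products of their loci, miRNAs nearest to the family by a fixed rule, extreme seed families, and marker lists as sums, with those at 0 by name. miR-23b-3p and miR-147-3p are named from outside that rule, chosen after their values were seen. The members and lists were chosen with earlier results of these data known. Sequences are from RefSeq (GRCm38.p6) and positions from GENCODE M21.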

Additional observations from a re-analysis of the deposited data

How the results depend on the processing

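The log2 ratio of the summed guide arms, -0.50, was -0.49 with TMM, -0.43 with DESeq2 size factors, -0.51 with the authors' deposited TPM and -0.63 without the 10 most abundant miRNAs in the total, a group that includes miR-16-5p. That last total shifts every log2 ratio by -0.13. It gives 48 lower and 15 higher miRNAs at 2-fold of the 298, where the sum of listed reads gives 39 and 20. Each scaling moves every log2 ratio by 1 constant, so the distance of the family sum from the median of the 298, -0.42, is fixed by construction. Scaled by listed reads, the log2 ratio of the sum was -0.49 without miR-15b-5p and -0.71 without miR-16-5p. Of 48 recomputed member ratios 37 stayed within their counting interval, 11 moved beyond it and 0 changed direction. That last count could not have been otherwise. Adding the same CPM to both libraries cannot change a direction. The scaling shifts, from -0.13 to 0.08, were smaller than the member ratio nearest to 0, 0.25 for miR-322-5p. Adding 5 CPM brought miR-195a-5p to -2.01 and miR-497a-5p to -1.80, as both are low in Th17.

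The count of members at least 2-fold lower was 5 at 1.5-fold, 0 with a mean of at least 100 CPM and, instead of 3, was 2 with DESeq2 size factors, where miR-15a-3p was at -0.98, and that of members at least 2-fold higher was 0 at 100 CPM and 0 without the 10 most abundant in the total. The place among seed families was 38 of 146 with that total and 54 of 196 with a minimum of 10 CPM, as more families pass. The share of miR-15b-5p among guide arms was 51.4% in Th17 and 56.2% in Th0 once miR-16-5p was left out. With miR-16-1-3p as the only 3p arm the Mir16 5p share was 99.95% in both libraries, and with miR-16-2-3p 99.84% in Th17 and 99.82% in Th0.

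No paired analysis was possible because there is 1 library per group, which also means that no replicate could be left out. Among the 8 members, depth limits miR-195a-5p and miR-497a-5p most: at 36 and 44 reads in Th17, the intervals of their log2 ratios reach 0.53 and 0.49 to either side.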
